A study of Mus musculus with 10 samples.

Results

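Matrix metalloproteinases and their tissue inhibitors were examined in whole 4T1 tumors with a control guide RNA or a guide RNA against Taz. The members are 7 metalloproteinase genes (Mmp2, Mmp3, Mmp9, Mmp12, Mmp13, Mmp14 and Mmp19) and 3 inhibitor genes (Timp1, Timp2 and Timp3), chosen by name, and all 10 were found among the 17864 genes of the count table. 4T1 is a mouse mammary carcinoma line used as a model of triple-negative breast cancer. TAZ, encoded by Wwtr1, is a co-activator of the Hippo pathway that binds DNA through TEAD transcription factors. RNA-seq was performed on 5 tumors of 4T1 cells that carried Cas9 and the control guide (sgCon) and on 5 tumors of 4T1 cells that carried Cas9 and the Taz guide (sgTaz).

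Cas9 and guides were brought into the 4T1 cells by lentivirus, and both groups carry Cas9. Whether the cells were a clone or a pool is not stated. The methods list a single target sequence for the Taz guide. Effects of this guide at other sites, or other differences between the sgCon and sgTaz cells, cannot be told apart from loss of Taz. The methods give 100000 cells per injection, placed in a mammary fat pad of female mice of 6 to 8 weeks. BALB/c and SCID hosts are both named there, and which of them bore the sequenced tumors is not given. Host cells in these tumors have an intact Taz gene, since the guide was in the injected cells only. No source says that each tumor came from a separate mouse, so that all p-values here measure the spread between these 10 samples. Since whole tumors were sequenced, fewer cells of a type and less RNA per cell cannot be told apart.

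Matrix metalloproteinases are zinc proteases that cut collagens, gelatin, elastin, proteoglycans and many cell surface or soluble proteins. Most are secreted as inactive precursors, whose propeptide is removed by furin, by plasmin or by another metalloproteinase. The tissue inhibitors block the active site in a complex of equal parts. In mammary tumors, tumor cells, fibroblasts, macrophages and neutrophils can all make them.

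Each tumor had 12185383 to 19595821 counts in total, with medians of 17155103 for sgCon and 15566873 for sgTaz. Each member had at least 325 counts in each tumor, and all 10 passed the filter on low counts. Wwtr1 had 163 ± 30.2 CPM in sgCon and 108 ± 19.2 CPM in sgTaz tumors (SD, n = 5 each), where CPM is the count relative to the library size after TMM scaling, which adjusts for library composition. The ranges of Wwtr1 overlapped, from 114.5 to 192 CPM in sgCon and from 86.6 to 139 CPM in sgTaz tumors, and the log2 fold change was -0.59 ± 0.15 (SE, adjusted p = 0.0960 with edgeR). Summed B cell markers were between 68.1 and 860.1 CPM in sgCon tumors, with the highest value in sgCon tumor 3, and between 7.56 and 183 CPM in sgTaz tumors, with the highest value in sgTaz tumor 5. Summed lymph node stroma markers were highest in the same tumors, at 895 CPM in sgCon tumor 3 and 425 CPM in sgTaz tumor 5. Of the 8 tested genes of either list, 8 B cell genes and 6 lymph node stroma genes had a log2 fold change below 0. The part of these tissues in the results was not tested, other than by leaving out each tumor.

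Across the 14816 genes tested, only Tmx4, picked after its values were seen, passed an adjusted p below 0.05 with edgeR's quasi-likelihood test, with 71.3 CPM in sgCon and 97.2 CPM in sgTaz tumors. Therefore 0.00675% of all genes were called, and 0 of the 10 members. At an unadjusted p below 0.05, 3 of the 10 members passed, against 21.8% of all genes tested. Mmp14 was higher in sgTaz tumors, where 9.86% of all genes passed in this direction, and Mmp3 and Timp1 were lower, where 11.9% did. DESeq2 called Timp1 among the members, as lower, against 7.22% of all genes in either direction and 3.63% as lower. Likewise, limma-voom with quality weights called Timp1, against 10.4% and 5.8% of all genes. Over the 10 members, the median log2 fold change was 0.11, with 6 above 0 and 4 below, while the median over all genes tested was -0.019, with 47% above 0 and 53% below.

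**Figure D1:**
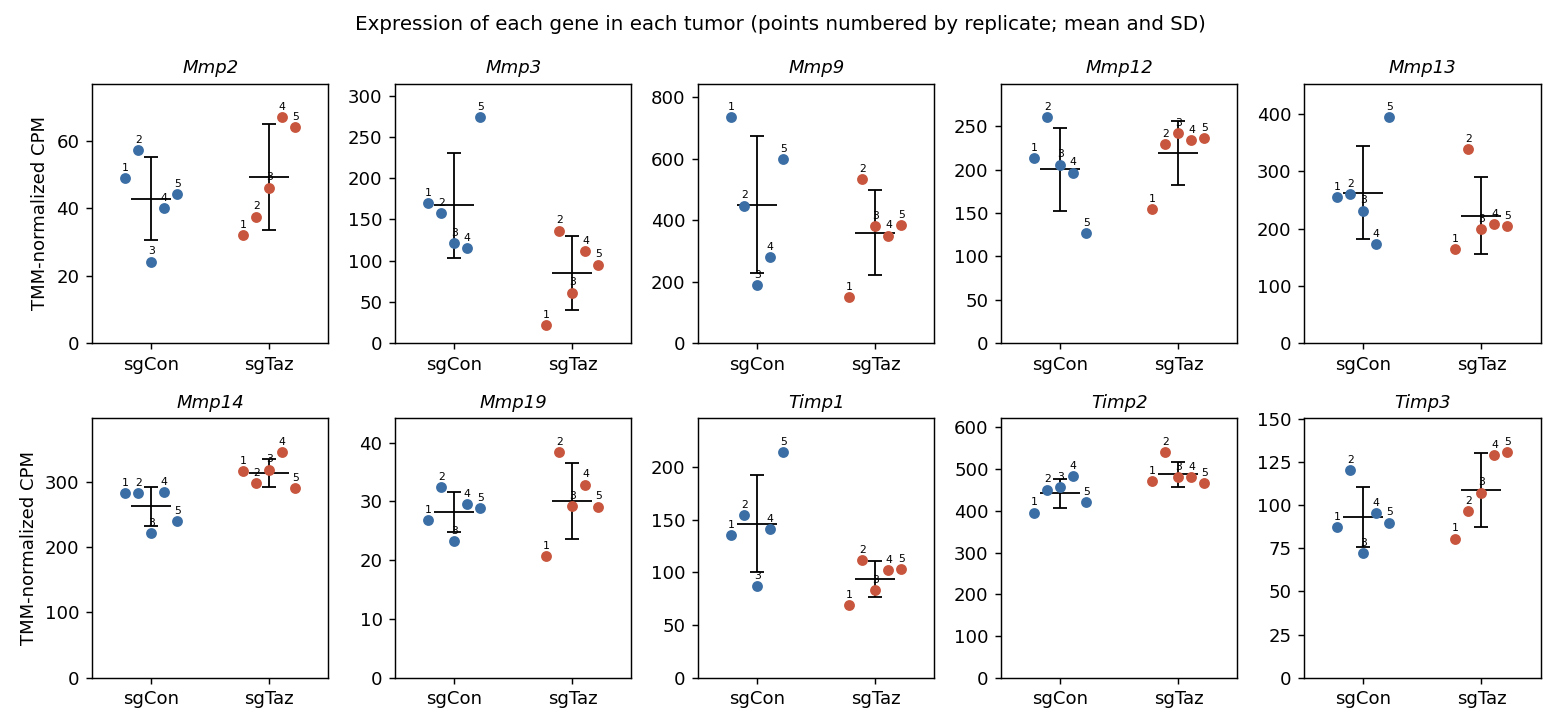
TMM-normalized CPM (y axis) of each of the 10 genes in each tumor (points, numbered by replicate) of the sgCon and sgTaz groups, with the mean and SD of 5 tumors. Mmp14 is the gene whose groups do not overlap, and for Mmp3 and Timp1 each sgTaz tumor lies below the sgCon median.

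Promoter sequences are shown for the 3 members at an unadjusted p below 0.05 and for Mmp13 and the stromelysin gene Mmp10. Mmp13 and Mmp10 lie in the same gene cluster as Mmp3. Each line gives the 120 bases before a RefSeq start site (build GRCm38.p6, plus strand, read 5′ to 3′), and capitals mark TGAGTCA, the site bound by AP-1, on either strand, and the core promoter letters TATAAA. In Mmp13 the AP-1 letters stand as their reverse complement. RefSeq windows were found for 7 of the 10 members. Mmp2, Mmp9 and Mmp19 had no entry.
Mmp3 (chr9:7445702-7445821): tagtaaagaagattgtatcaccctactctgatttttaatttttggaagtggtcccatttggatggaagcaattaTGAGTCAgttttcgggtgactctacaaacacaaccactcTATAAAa
Mmp10 (chr9:7502222-7502341): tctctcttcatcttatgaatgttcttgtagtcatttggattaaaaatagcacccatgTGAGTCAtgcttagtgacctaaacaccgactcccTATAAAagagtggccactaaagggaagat
Mmp13 (chr9:7272394-7272513): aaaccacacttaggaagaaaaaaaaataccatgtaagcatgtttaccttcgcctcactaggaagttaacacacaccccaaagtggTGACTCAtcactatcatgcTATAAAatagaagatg
Mmp14 (chr14:54431478-54431597): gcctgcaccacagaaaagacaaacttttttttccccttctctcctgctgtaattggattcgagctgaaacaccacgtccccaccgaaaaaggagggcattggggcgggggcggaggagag
Timp1 (chrX:20870046-20870165): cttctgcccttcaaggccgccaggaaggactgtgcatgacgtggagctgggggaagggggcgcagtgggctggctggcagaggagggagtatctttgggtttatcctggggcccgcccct

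In the 250 bases before the start, TGAGTCA on either strand began 46 bases before the start of Mmp3, 63 bases before that of Mmp10 and 35 bases before that of Mmp13. It was present in 4.46% of all 32851 RefSeq windows. TATAAA on the gene's strand began 7 bases before the start of Mmp3, 29 before that of Mmp10 and 16 before that of Mmp13, and was present in 7.59% of all windows. Of the 2 windows of Mmp12, the second held TGAGTCA, 44 bases before its start. The windows of Mmp14, Timp2 and Timp3 held neither of them. GGAATG, the letters that TEAD factors bind, was found on either strand in the window of Timp1, 247 bases before its start, and in 12.6% of all windows. These motifs do not overlap, and such matches describe letters, not binding.

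Mmp3 encodes stromelysin-1, a protease of proteoglycans, laminin and E-cadherin that also activates other metalloproteinase precursors. It lies on chromosome 9 of mm10 from 7445822 to 7455975 on the plus strand (ENSMUSG00000043613.8). Mmp3 had 169, 157, 121, 115.5 and 274 CPM in sgCon tumors 1 to 5. In sgTaz tumors 1 to 5 it had 21.9, 136, 61.2, 111 and 95.1 CPM. Each sgTaz tumor was below the sgCon median and 4 of the 5 were below each sgCon tumor, so that the groups overlapped through sgTaz tumor 2 alone. The mean was 167 ± 63.8 CPM in sgCon and 85.1 ± 44.6 CPM in sgTaz tumors (SD, n = 5 each), with a log2 fold change of -0.98 ± 0.40 (SE). The difference did not pass the adjusted threshold of edgeR's quasi-likelihood test (adjusted p = 0.195), and the exact two-sided permutation test over the 10 tumors gave an unadjusted p of 0.0317. The unadjusted p of edgeR was 0.0333, and it was 0.0526 without sgCon tumor 1, 0.0985 without sgCon tumor 5 and 0.0743 without sgTaz tumor 3. Mmp3 had the widest range of the 10 members, 12.5-fold between the highest and the lowest tumor.

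Mmp10, which encodes stromelysin-2, starts 56.5 kb from the start of Mmp3, with Mmp1a between them. Mmp10 had 45.04, 32.9, 29.2, 14.4 and 48.1 CPM in sgCon tumors 1 to 5. In sgTaz tumors 1 to 5 it had 6.94, 38.6, 11.8, 18.1 and 11.6 CPM. As for Mmp3, Mmp9, Mmp13, Mmp19 and Timp1, sgTaz tumor 1 was the lowest and sgTaz tumor 2 the highest of its group. The log2 fold change of Mmp10 was -0.96 ± 0.44 (SE, n = 5 each), with an adjusted p of 0.229 with edgeR, 0.239 with DESeq2 and 0.0307 with limma-voom. Mmp3 and Mmp10 belong to a cluster of metalloproteinase genes that spans 309 kb of chromosome 9, in the order Mmp13, Mmp12, Mmp1b, Mmp3, Mmp1a, Mmp10, Mmp8 and Mmp27. Of its 8 genes in the table, 6 were tested, with 4 log2 fold changes below 0 and 2 above. Mmp8, the neutrophil collagenase, had a log2 fold change of -0.92 ± 0.41 (SE) with 6.77 ± 3.81 CPM in sgCon and 3.59 ± 1.55 CPM in sgTaz tumors (SD, n = 5 each; adjusted p = 0.222 with edgeR). Mmp27 was at 0.59 ± 0.27 CPM in sgCon and 1.09 ± 0.47 CPM in sgTaz tumors (SD, n = 5 each; log2 fold change 0.86, adjusted p = 0.221 with edgeR), from 6 to 25 counts a tumor. The interstitial collagenase genes Mmp1a and Mmp1b had at most 24 and 13 counts in any tumor and were not tested.

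**Figure D2:**
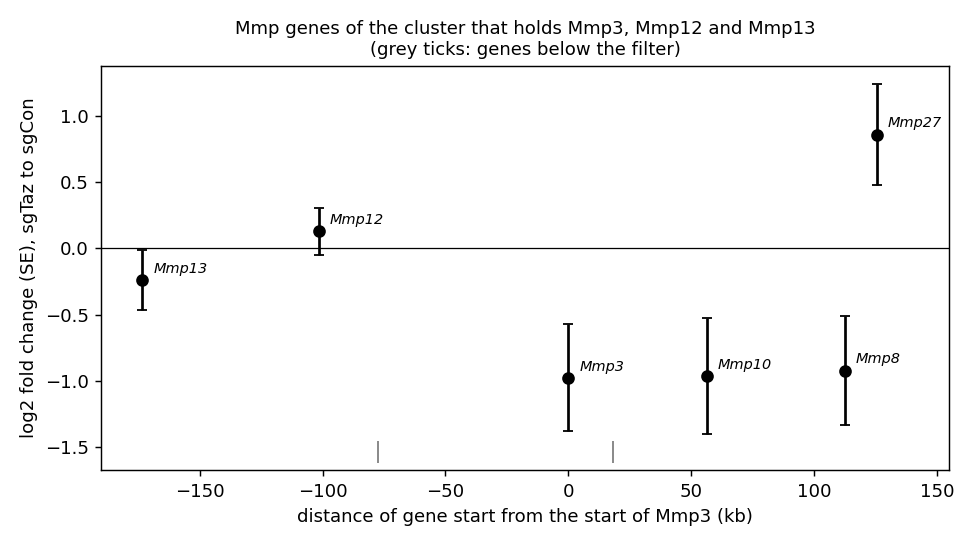
Log2 fold change between sgTaz and sgCon tumors (y axis, bars show the SE) of the 6 tested metalloproteinase genes of the chromosome 9 cluster, by distance of the gene start from the start of Mmp3 (x axis, kb). Grey ticks are Mmp1b and Mmp1a, which were not tested. Mmp3, Mmp10 and Mmp8 lie between -0.98 and -0.92, while Mmp13 and Mmp12 lie near 0 and Mmp27 is above it.

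Mmp13 encodes collagenase-3, which cuts fibrillar collagens, and lies at the other end of this cluster (mm10 chromosome 9, 7272514 to 7283331, plus strand). Mmp13 had 255, 260.4, 231.5, 172 and 394 CPM in sgCon tumors 1 to 5 and 164, 339, 199, 208 and 204 CPM in sgTaz tumors 1 to 5. The groups overlapped across most of their ranges, and sgTaz tumor 2 stood above the rest of its group. The log2 fold change was -0.24 ± 0.23 (SE, n = 5 each), with an adjusted p of 0.572 with edgeR, and was between -0.44 (without sgTaz tumor 2) and -0.044 (without sgCon tumor 5) when each tumor was left out in turn.

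Mmp9 and Mmp2 encode the gelatinases, which cut denatured collagen and the type IV collagen of basement membranes. Mmp9 lies on chromosome 2 (164940780 to 164955850, plus strand) and Mmp2 on chromosome 8 (92827291 to 92853420, plus strand) of mm10. Mmp9 had 735, 447, 189, 280.1 and 599.9 CPM in sgCon tumors 1 to 5 and 149, 533, 381, 349.7 and 385 CPM in sgTaz tumors 1 to 5. Both groups spread widely, with a coefficient of variation of 49.7% in sgCon and 38.3% in sgTaz tumors, and the log2 fold change of -0.32 ± 0.38 was smaller than its SE (n = 5 each; adjusted p = 0.649 with edgeR). Without 1 tumor it was between -0.51 (without sgTaz tumor 2) and -0.076 (without sgCon tumor 1). Mmp2 had 48.9, 57.2, 24.1, 39.97 and 44.3 CPM in sgCon tumors and 32.0, 37.5, 46.2, 67.0 and 64.3 CPM in sgTaz tumors 1 to 5. For Mmp2, sgCon tumor 3 was the lowest of all and sgTaz tumors 4 and 5 were the highest. The log2 fold change of Mmp2 was 0.20 ± 0.25 (SE, n = 5 each; adjusted p = 0.672 with edgeR), and was 0.055 without sgCon tumor 3, 0.067 without sgTaz tumor 4, 0.088 without sgTaz tumor 5 and between 0.18 and 0.33 without any other tumor.

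Mmp14 encodes the membrane-anchored metalloproteinase MT1-MMP, which cuts collagen at the cell surface and activates the precursor of Mmp2 in a complex with Timp2. It lies on chromosome 14 of mm10 from 54431612 to 54445364 on the plus strand (ENSMUSG00000000957.11). Mmp14 had 282, 283, 221, 285 and 240.1 CPM in sgCon tumors 1 to 5. In sgTaz tumors 1 to 5 it had 317, 298, 319, 345 and 291 CPM. Each sgTaz tumor was above each sgCon tumor, and the gap was small, from 285 CPM in sgCon tumor 4 to 291 CPM in sgTaz tumor 5. Mmp14 was the only member whose groups did not overlap, and 2.44% of all genes tested had each sgTaz tumor above each sgCon tumor, and 2.13% had each below. The mean was 262 ± 29.6 CPM in sgCon and 314 ± 21.3 CPM in sgTaz tumors (SD, n = 5 each), with a log2 fold change of 0.26 ± 0.088 (SE). The exact two-sided permutation test gave an unadjusted p of 0.00794, the smallest value that 5 against 5 tumors allow. A gene whose groups do not overlap has this value, so that it restates the lack of overlap. The adjusted p of edgeR's quasi-likelihood test for Mmp14 was 0.141. For the other members, the unadjusted permutation p was 0.0317 for Mmp3 and Timp1 and 0.0476 for Timp2. It was between 0.262 and 0.659 for the rest. With DESeq2 and limma-voom, the adjusted p of Mmp14 was 0.0635 and 0.0532. Its log2 fold change was between 0.21 and 0.29 when each tumor was left out in turn.

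Mmp12 encodes macrophage metalloelastase, and lies on chromosome 9 of mm10 from 7344381 to 7369499 on the plus strand. Mmp12 had 213, 260.2, 206, 196.5 and 126.5 CPM in sgCon tumors 1 to 5 and 154, 229, 242, 234 and 236 CPM in sgTaz tumors 1 to 5. In sgTaz tumors 2 to 5 it stayed within a narrow band, and the sgCon values lay on both sides of that band. The log2 fold change was 0.13 ± 0.18 (SE, n = 5 each; adjusted p = 0.700 with edgeR), and was 0.0018 without sgCon tumor 5, 0.24 without sgCon tumor 2 and 0.23 without sgTaz tumor 1. Mmp19, which encodes a metalloproteinase of basement membrane proteins, had 26.8, 32.4, 23.3, 29.5 and 28.9 CPM in sgCon tumors and 20.7, 38.4, 29.3, 32.9 and 29.1 CPM in sgTaz tumors 1 to 5. Its log2 fold change was 0.092 ± 0.15 (SE, n = 5 each; adjusted p = 0.752 with edgeR), and was -0.011 without sgTaz tumor 2. Mmp19 lies on chromosome 10 of mm10 from 128790910 to 128800824 on the plus strand. Its exons share 1001 bases with Tmem198b and the antisense gene Gm47093 on the other strand, summed over both. Gm47093 was not analysed here. Tmem198b had between 250 and 476 counts, and whether the counting used strand is not stated, so that reads of these genes may be mixed. Exons of Mmp12 share 157 bases with Mmp1b in the same way.

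Timp1 encodes a secreted inhibitor that blocks most soluble metalloproteinases and is a poor inhibitor of the membrane-type enzymes such as MT1-MMP. It lies on chromosome X of mm10 from 20870166 to 20874735 on the plus strand (ENSMUSG00000001131.11), within the span of Syn1, which had between 7 and 23 counts. Timp1 had 136, 154, 86.7, 141 and 214 CPM in sgCon tumors 1 to 5. In sgTaz tumors 1 to 5 it had 68.9, 111.5, 83.5, 102 and 103 CPM. Each sgTaz tumor was below 4 of the 5 sgCon tumors, and the groups overlapped through sgCon tumor 3 alone, which had the highest sums of B cell and lymph node stroma markers. The mean was 146 ± 45.8 CPM in sgCon and 93.9 ± 17.3 CPM in sgTaz tumors (SD, n = 5 each), with a log2 fold change of -0.64 ± 0.21 (SE). The adjusted p was 0.129 with edgeR's quasi-likelihood test, 0.0449 with DESeq2 and 0.0280 with limma-voom, and the exact two-sided permutation test gave an unadjusted p of 0.0317.

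The difference of Timp1 depended on a correction for GC content and exon length, with which its log2 fold change was -0.27 ± 0.21 (SE, adjusted p = 0.491 with edgeR). Timp1 has the shortest exon length of the members, 888 bases. Among all genes tested, the median log2 fold change was -0.22 for the 551 genes with less than 1000 bases of exons, -0.13 for genes of 1000 to 2000 bases and 0.068 for genes of at least 8000 bases. With the correction, 61.9% of the genes at an unadjusted p below 0.05 were higher in sgTaz tumors, against 45.3% without it. The correction left Mmp3 at -0.91 ± 0.40 and Mmp14 at 0.33 ± 0.11 on the log2 scale (SE, adjusted p = 0.229 and 0.146 with edgeR). The members at an unadjusted p below 0.05 were then Mmp3, Mmp14 and Timp2.

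**Figure D3:**
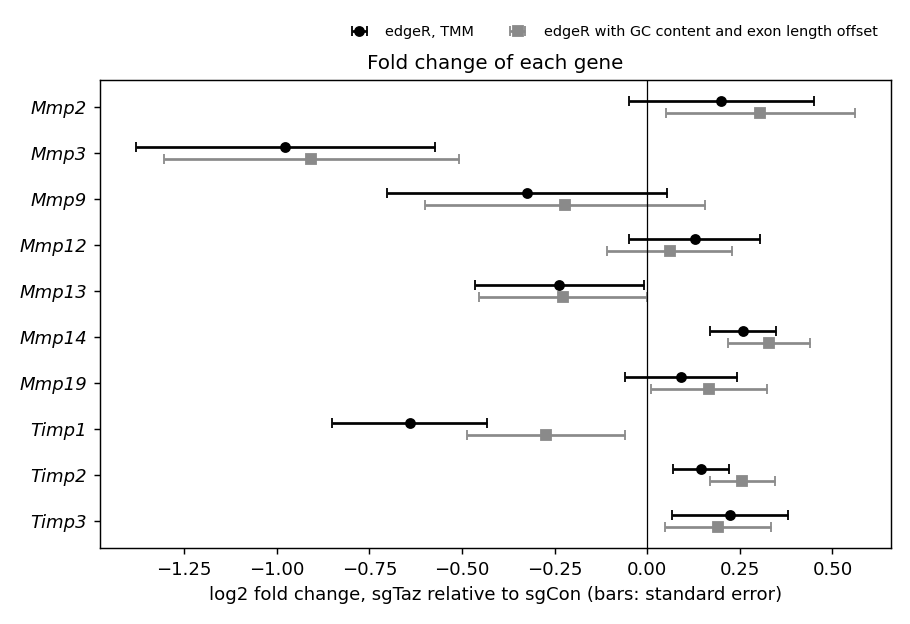
Log2 fold change of each gene between sgTaz and sgCon tumors (x axis), with its SE as bars, from edgeR with TMM normalization (black circles) and with a correction for GC content and exon length (grey squares). Timp1 is the gene that moves most with the correction, from -0.64 to -0.27, while Mmp3 stays at -0.91 and Mmp14 at 0.33.

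Timp2 encodes a secreted inhibitor that also blocks MT1-MMP and links it to the precursor of Mmp2. Timp2 (mm10 chromosome 11, 118301069 to 118355740, minus strand) had 396, 451, 458, 484 and 420.2 CPM in sgCon tumors 1 to 5 and 471, 541, 481, 482 and 466.5 CPM in sgTaz tumors 1 to 5. Each sgTaz tumor was above the sgCon median, and the groups overlapped through sgCon tumor 4. Timp2 had the narrowest range of the 10 members, 1.37-fold between the highest and the lowest tumor. The log2 fold change was 0.14 ± 0.075 (SE, n = 5 each), with an adjusted p of 0.284 with edgeR, and was 0.26 ± 0.088 with the correction for GC content and exon length (adjusted p = 0.154 with edgeR).

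Timp3 encodes an inhibitor that is bound to the matrix and also blocks several ADAM and ADAMTS proteases. Timp3 (mm10 chromosome 10, 86300372 to 86349506, plus strand) had 87.6, 121, 72.2, 95.6 and 89.9 CPM in sgCon tumors 1 to 5 and 80.6, 96.5, 107, 129 and 131 CPM in sgTaz tumors 1 to 5. Its highest values were in sgTaz tumors 4 and 5, as for Mmp2, and its lowest value was in sgCon tumor 3. The log2 fold change was 0.22 ± 0.16 (SE, n = 5 each; adjusted p = 0.421 with edgeR), and was between 0.15 without sgCon tumor 3 and 0.33 without sgCon tumor 2. Its exons share 1733 bases with Syn3 on the other strand, which had between 49 and 100 counts.

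To compare levels between genes, CPM were divided by the exon length in kb. This length merges all annotated exons of a gene and can exceed that of the transcripts present. It was 7237 bases for Mmp12 and 1801 bases for Mmp3. The order between genes, and the shares below, therefore depend on the annotation. On this scale of levels, Timp1 led in sgCon tumors (165 ± 51.5 CPM per kb), followed by Mmp9 (127 ± 63.2) and Timp2 (113 ± 8.8). In sgTaz tumors, Timp2 led (125 ± 7.7 CPM per kb), followed by Timp1 (106 ± 19.5) and Mmp9 (102 ± 38.9; SD, n = 5 each). These leading genes were followed over the 10 tumors by Mmp13 (90.8), Mmp3 (70.1), Mmp14 (48.3) and Mmp12 (29.0). Mmp2 (13.7), Timp3 (12.4) and Mmp19 (8.24) were lowest. Timp1 was above Timp2 in 4 of 5 sgCon and in 0 of 5 sgTaz tumors, and Timp2 was above Mmp9 in 2 of 5 sgCon and in 4 of 5 sgTaz tumors. These levels carry no correction for GC content and exon length, on which the difference of Timp1 depended. Mmp2 was above Timp3 in 7 of 10 tumors. In contrast, Mmp14 was above Mmp12, Mmp12 above Mmp2, and Timp3 above Mmp19 in all 10.

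As a share of the summed CPM per kb of the 10 genes, Timp1 was 23.3% ± 3.5 in sgCon and 18.2% ± 1.1 in sgTaz tumors (SD, n = 5 each). Mmp3 was 13.01% ± 2.26 in sgCon and 7.65% ± 3.12 in sgTaz tumors. The shares of Mmp14, 6.50% ± 1.34 and 9.38% ± 2.24, and of Timp2, 17.0% ± 4.8 and 22.1% ± 4.1, were higher in sgTaz tumors, and those of Mmp9 (17.4% and 16.9%) and Mmp13 (14.0% and 14.2%) were nearly equal in mean. The ratio of the 3 inhibitors to the 7 proteases was 0.734 ± 0.162 in sgCon and 0.754 ± 0.154 in sgTaz tumors, closer than the spread within either group. The ratio of Timp1 to Mmp14 was between 2.63 and 5.99 in sgCon and between 1.46 and 2.51 in sgTaz tumors, without overlap. This ratio joins 2 members picked after their values were seen, and shares of a sum move together, so that neither was tested. Shares and ratios were also computed without the correction for GC content and exon length. With it, the log2 fold change of Timp1 was -0.27 instead of -0.64, that of Timp2 0.26 instead of 0.14, and that of Mmp14 0.33 instead of 0.26.

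**Figure D4:**
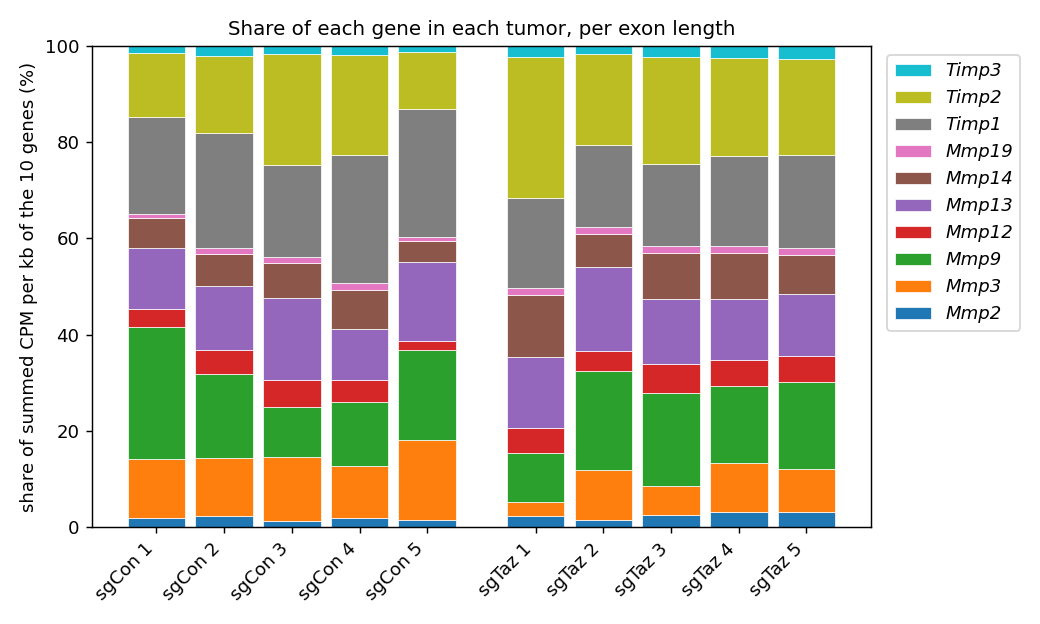
Share of each of the 10 genes in their summed CPM per kb of exon (y axis, %) in each tumor (x axis, sgCon 1 to 5 and sgTaz 1 to 5). The Timp1 share (grey) is lower and the Mmp14 share (brown) is higher in mean in sgTaz tumors, and Mmp3 (orange) is thinnest in sgTaz tumor 1. Shares are without the correction for GC content and exon length.

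To see which members varied together apart from the group difference, correlations of log2 CPM were computed over the 10 tumors after the group means were taken off. Of the 45 pairs of members, 35 had a positive Pearson r, 9 had an exact permutation p below 0.05, all positive, and 0 passed after Benjamini-Hochberg adjustment over the 45 pairs. With Spearman's rho, 6 pairs had an exact permutation p below 0.05 and 0 passed. The tumors share depth and tissue makeup across genes, and sgCon tumor 3 and sgTaz tumor 1 were low for several members at the same time.

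The pair with the highest correlation was Mmp2 with Timp3 (r = 0.923, exact permutation p = 0.00208, adjusted p = 0.0563). Its Spearman's rho was 0.830 (exact permutation p = 0.0113, adjusted p = 0.169), and r was 0.850 without sgCon tumor 3 and sgTaz tumor 1, the tumors farthest from the median of Mmp2. Mmp3 was correlated with Timp1 (r = 0.751, exact permutation p = 0.0025, adjusted p = 0.0563), with a rho of 0.855 (exact permutation p = 0.00542, adjusted p = 0.122) and an r of 0.780 without sgTaz tumors 1 and 2. For Mmp3 with Mmp9, r was 0.795 (exact permutation p = 0.00535, adjusted p = 0.0802), rho was 0.758 (exact permutation p = 0.0181, adjusted p = 0.204), and r was 0.610 without the same tumors. For Mmp3 with Mmp13, which lies at an end of the same cluster, r was 0.764 (exact permutation p = 0.0137, adjusted p = 0.121). Its rho was 0.879 (exact permutation p = 0.00146, adjusted p = 0.0656), and r was 0.827 without these tumors. Mmp12, which lies between Mmp13 and Mmp3, had an r of 0.218 with Mmp3 (exact permutation p = 0.463, adjusted p = 0.717). Of the other 5 pairs with an exact permutation p below 0.05, 3 rested on the tumors farthest from the median: without them, r went from 0.818 to 0.348 for Mmp3 with Mmp19, from 0.706 to 0.027 for Mmp9 with Mmp19 and from 0.767 to 0.307 for Mmp9 with Timp1. It went from 0.684 to 0.759 for Mmp9 with Mmp13 and from 0.719 to 0.705 for Mmp19 with Timp1. Over these 5 pairs, the exact permutation p of r was between 0.00833 and 0.0497 (adjusted, between 0.0938 and 0.248), and rho was between 0.321 and 0.770 (exact permutation p between 0.0235 and 0.391, adjusted between 0.211 and 0.661). Without sgCon tumor 1, 3 pairs passed the adjusted threshold (Mmp2 with Timp3, Mmp3 with Timp1, and Mmp9 with Timp1), and without sgTaz tumor 2, Mmp3 with Mmp13 passed.

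**Figure D5:**
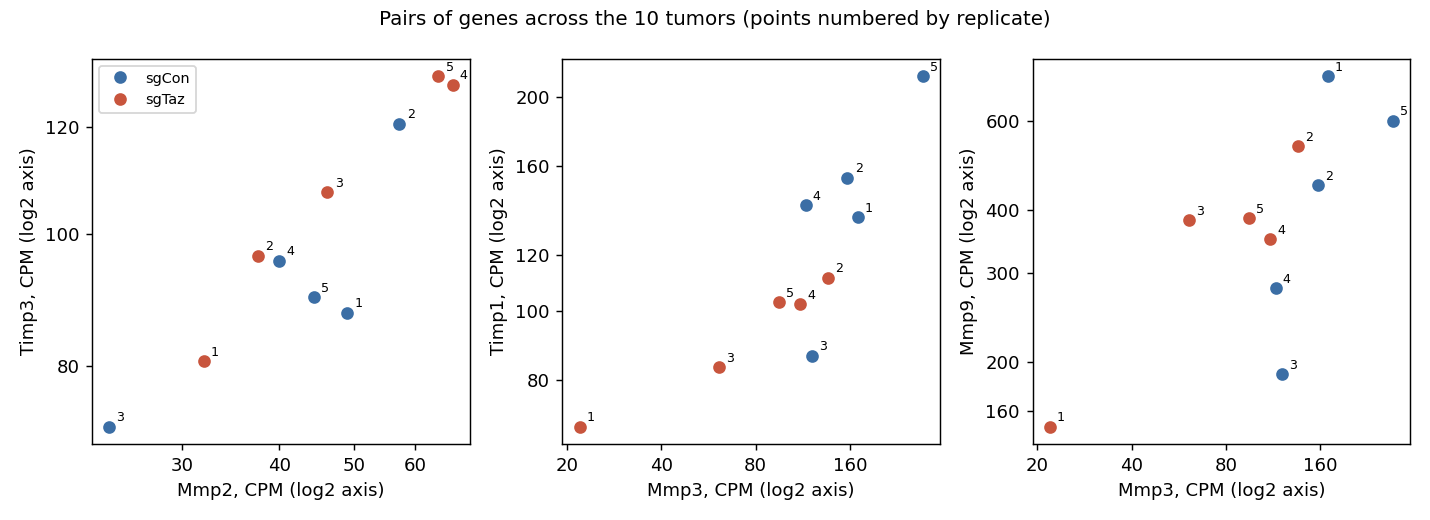
CPM of Mmp2 and Timp3, Mmp3 and Timp1, and Mmp3 and Mmp9 in the 10 tumors (both axes on a log2 scale, points numbered by replicate, sgCon in blue and sgTaz in red). Tumors that are high for the gene on the x axis are mostly high for that on the y axis, and sgTaz tumor 1 is the lowest for Mmp3, Timp1 and Mmp9.

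Among all genes tested, the 2 whose log2 CPM was most correlated with each member other than Mmp14 over the 10 tumors, with group means taken off, were as follows. For Mmp2 these were Col3a1 (r = 0.962), a fibrillar collagen, and Fbln1 (r = 0.962), a matrix glycoprotein. For Mmp9 they were Col6a3 (r = 0.989) and Thbs2 (r = 0.981), for Timp1 Mfap2 (r = 0.977) and Fkbp10 (r = 0.956), and for Timp3 Htra3 (r = 0.981) and Reg1 (r = 0.958). Col6a3 is a chain of collagen VI, Thbs2 a matricellular glycoprotein, Mfap2 a microfibril protein and Fkbp10 a chaperone of procollagen. For Mmp3 they were Layn (r = 0.973) and Gm15832 (r = 0.970), for Mmp13 Ivns1abp (r = 0.972) and Gm26616 (r = 0.947), and for Mmp12 Nrg4 (r = 0.940) and Fam20c (r = 0.931). For Mmp19 they were Pf4 (r = 0.959) and Krt17 (r = 0.933), and for Timp2 Card19 (r = 0.954) and Lcmt1 (r = 0.949). With 10 tumors and 14816 genes, such values are the highest of many and are given as a description.

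The other metalloproteinases and inhibitors were mostly weakly expressed. Of 19 listed genes, 12 were tested and 0 were called by edgeR, against 0.00675% of all genes tested. At an unadjusted p below 0.05, 3 were higher and 2 lower in sgTaz tumors, against 9.86% and 11.9% of all genes tested. Reck, a membrane-anchored inhibitor of metalloproteinases, had 7.39, 10.6, 11.48, 11.6 and 10.3 CPM in sgCon and 17.5, 10.1, 19.7, 18.8 and 13.2 CPM in sgTaz tumors 1 to 5. Thus 4 of the 5 sgTaz tumors were above each sgCon tumor, with a log2 fold change of 0.63 ± 0.20 (SE, n = 5 each) and an adjusted p of 0.125 with edgeR, 0.0432 with DESeq2 and 0.0318 with limma-voom. Mmp11, stromelysin-3 of stromal fibroblasts, was at 26.1 ± 6.2 and 27.1 ± 4.2 CPM, and the membrane-type enzyme Mmp15 at 14.6 ± 2.9 and 17.7 ± 3.9 CPM (sgCon and sgTaz, SD, n = 5 each).

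Of 18 genes of ADAM and ADAMTS proteases, which release cell surface proteins and cut proteoglycans, all were tested and 0 were called by edgeR. At an unadjusted p below 0.05, 3 were higher and 0 lower in sgTaz tumors, against 9.86% and 11.9% of all genes tested. Adam10, a major sheddase of Notch and cadherins, had between 238 and 310.3 CPM in sgCon and between 339 and 414 CPM in sgTaz tumors, without overlap (log2 fold change 0.43 ± 0.085, SE, n = 5 each). Its adjusted p was 0.0824 with edgeR, 7.81e-04 with DESeq2 and 0.0190 with limma-voom. Adam9, another sheddase, had between 128 and 157 CPM in sgCon and between 172.5 and 200.1 CPM in sgTaz tumors, also without overlap (log2 fold change 0.34 ± 0.075, SE; adjusted p = 0.0896 with edgeR and 0.00136 with DESeq2). Over all genes tested, 2.44% had each sgTaz tumor above each sgCon tumor, and DESeq2 called 7.22%. Adam8, expressed by myeloid cells, was at 116 ± 18.6 and 100.3 ± 12.7 CPM, and Adam15 at 114 ± 23.8 and 127 ± 13.3 CPM (sgCon and sgTaz, SD, n = 5 each).

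Of 18 genes of metalloproteinase activation and the plasminogen system, 17 were tested and 0 were called by edgeR. At an unadjusted p below 0.05, 3 were higher and 2 lower in sgTaz tumors, against 9.86% and 11.9% of all genes tested. The median log2 fold change of this list was -0.22, with 14 of the 17 genes below 0, and was -0.14 with the correction for GC content and exon length. Serpine2, an inhibitor of plasminogen activators, had between 162 and 657.5 CPM in sgCon and between 316 and 1006 CPM in sgTaz tumors (log2 fold change 1.00 ± 0.41, SE, n = 5 each; adjusted p = 0.197 with edgeR, 0.157 with DESeq2 and 0.0415 with limma-voom). Lrp1, an endocytic receptor that clears proteases and their inhibitors, was at 461 ± 94.2 and 652 ± 124 CPM (sgCon and sgTaz, SD, n = 5 each), with an adjusted p of 0.129 with edgeR, 0.0393 with DESeq2 and 0.0413 with limma-voom. Bsg, a membrane protein that induces metalloproteinases in fibroblasts, was at 517.5 ± 72.7 and 444 ± 45.5 CPM, and Lcn2, which binds the Mmp9 protein, at 537 ± 207.5 and 489 ± 128 CPM.

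Of 14 genes of cysteine and serine proteases of the matrix and their inhibitors, 12 were tested and 0 were called by edgeR. At an unadjusted p below 0.05, 2 were higher and 2 lower in sgTaz tumors, against 9.86% and 11.9% of all genes tested. Ctss, cathepsin S of antigen-presenting cells, had between 302.5 and 683 CPM in sgCon and between 713 and 831 CPM in sgTaz tumors, without overlap (log2 fold change 0.49 ± 0.19, SE, n = 5 each; adjusted p = 0.183 with edgeR). Such a lack of overlap, with sgTaz above, was seen in 2.44% of all genes tested. The lysosomal cathepsins Ctsb (1207 ± 215 and 1510.0 ± 172 CPM), Ctsl (778 ± 89.7 and 717 ± 134 CPM) and Ctsz (439 ± 80.7 and 496 ± 32.3 CPM) overlapped between sgCon and sgTaz tumors. Of 20 matrix substrate genes, all tested, 0 were called by edgeR. At an unadjusted p below 0.05, 1 was higher and 0 lower in sgTaz tumors, against the same shares of all genes. Here Fn1, fibronectin, was at 5234 ± 1829 and 6353 ± 1165 CPM, Spp1, osteopontin, at 3357 ± 678.5 and 3735 ± 783 CPM, and the fibrillar collagens Col1a1 at 1138 ± 449.9 and 977 ± 296 CPM and Col3a1 at 1095 ± 499 and 1205 ± 626 CPM (sgCon and sgTaz, SD, n = 5 each).

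The labels name the cell type as tumor cell, but markers of macrophages, neutrophils, fibroblasts and endothelial cells were detected in all 10 tumors. None of the marker genes was called by edgeR, which called 1 gene in all. DESeq2 called 3 macrophage markers as higher in sgTaz tumors (Adgre1, Csf1r and Mrc1) and 1 neutrophil (Il1r2) and 2 epithelial markers (Krt19 and Krt14) as lower, and of the fibroblast markers Pdgfra as higher and Thy1 as lower. By limma-voom, 4 macrophage markers were called as higher, and 4 neutrophil, 3 epithelial, 5 lymph node stroma, 7 B cell and 1 skeletal muscle marker as lower, with the same 2 fibroblast markers. Of all genes tested, DESeq2 called 7.22% and limma-voom 10.4% in either direction, with 3.63% and 5.8% as lower. Summed macrophage markers were between 893 and 2023 CPM in sgCon and between 1744 and 2343 CPM in sgTaz tumors, and 11 of 11 genes had a log2 fold change above 0, with a median of 0.46. Summed neutrophil markers were between 219 and 831 CPM in sgCon and between 79.0 and 323 CPM in sgTaz tumors, and 10 of 10 tested genes, among them Mmp8, were below 0, with a median of -1.05. Of these lists, 5 of 11 macrophage genes were higher and 5 of 10 neutrophil genes lower at an unadjusted p below 0.05. Of all genes tested, 9.86% were higher and 11.9% lower at this threshold. Macrophages are a known source of Mmp9 and Mmp12, and neutrophils are a known source of Mmp9. Both Mmp9 and Mmp12 overlapped between the groups, and the part of these cells in their levels was not tested.

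Epithelial markers, which mark 4T1 cells, summed to between 2266 and 5137 CPM in sgCon and between 1637 and 3977 CPM in sgTaz tumors, and 10 of 10 were below 0, with a median of -0.62. In sgTaz tumors, sgTaz tumor 2 had the highest epithelial sum and also the highest Mmp3, Mmp9, Mmp13, Mmp19, Timp1 and Timp2. Mmp10 and Mmp11 were highest there too, while Mmp2, Mmp12, Mmp14 and Timp3 were highest in other sgTaz tumors. In sgCon tumors this was not so, since sgCon tumor 1 had the highest epithelial sum and Mmp9. Mmp3, Mmp10, Mmp13 and Timp1 were highest in sgCon tumor 5, with an epithelial sum of 3401 CPM. Mmp19 was highest in sgCon tumor 2, and Mmp11 and Timp2 in sgCon tumor 4. Fibroblast markers summed to between 1964 and 5333 CPM in sgCon and between 1953 and 5291 CPM in sgTaz tumors. Their lowest values were in sgCon tumor 3 and sgTaz tumor 1, where Mmp2, Mmp9, Mmp19, Timp1 and Timp3 were also lowest within their group. The sum of the matrix substrates was also lowest of each group in these tumors, at 9612 and 12842 CPM. Both lists share 4 genes (Col1a1, Col1a2, Col3a1 and Dcn). Endothelial markers were between 435 and 612 CPM and between 366 and 696 CPM (sgCon and sgTaz). Adipocyte markers were between 70.4 and 116 CPM and between 44.7 and 210.1 CPM, and skeletal muscle markers between 31.0 and 70.9 CPM and between 14.5 and 70.5 CPM. No marker was at 0 in all tumors. The part of these cell types in the levels of any member, and in the differences of Mmp3, Mmp14 and Timp1, was not tested.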

How the data were processed

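RNA of whole 4T1 tumors was sequenced on an Illumina HiSeq 2000. Per the labels and methods, the authors mapped reads to mm10 (GRCm38) with STAR and GENCODE annotation and counted reads per gene with featureCounts of Subread. Versions of the tools and the strand setting are not given in the sources used here. The deposited values are counts of the authors, whole numbers without normalization. The table has 5 further columns, which match no label and were not used. Gene symbols, coordinates and exon lengths came from GENCODE M21, in which 17860 of 17864 identifiers were found, 17673 with the same version. The methods name another GENCODE release, so that gene models may differ. Promoters came from RefSeq.

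Tumors were grouped by column names and labels. No 2 tumors of a group agreed within sampling noise. With 3 counts as the floor, depth allowed shares down to between 1.53e-05% and 2.46e-05%, which covers counting error only. Counts were tested with edgeR 4.0.16 in R 4.3.3 (TMM, filterByExpr by group, quasi-likelihood test, Benjamini-Hochberg adjustment over 14816 genes, threshold 0.05). The standard error was derived from the fold change and its F statistic. DESeq2 1.42.0, limma-voom (limma 3.58.1) with quality weights, RLE and upper-quartile normalization, other filters, each tumor left out, the replicate number as a block, and an offset for GC content and exon length were alternatives. Exact permutation tests were run on log2 CPM (prior count 2), over 252 splits for groups and 14400 orders for correlations, in Python 3.11.15 with scipy 1.17.1. Scripts were tested on simulated data.

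The members and lists were chosen with earlier results of these data known. Named are all members, the 4 most expressed tested genes of each further list, any called gene, and the 2 genes most correlated with each member, of which the result for Mmp14 is not reported here. Genes of the chromosome 9 cluster were added after the data were seen.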

Additional observations from a re-analysis of the deposited data

Results flagged for a closer look

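In 10 of 48 groups of 5 tumors, of which 2.4 would be expected by chance, the highest or lowest tumor stood apart from the other 4 by Dixon's test at the 95% level. Among the members, Mmp12 was at 154 CPM in sgTaz tumor 1, against 229 to 242 CPM in the other sgTaz tumors. Mmp13 was at 339 CPM in sgTaz tumor 2, against 164 to 208 CPM. Timp2 was at 541 CPM in the same tumor, against 466.5 to 482 CPM.

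Among the summed lists, sgTaz tumor 2 also stood apart for epithelial markers, with 3977 CPM against 1637 to 2216 CPM, and for skeletal muscle markers, with 70.5 CPM against 14.5 to 22.6 CPM. In sgTaz tumor 1, the matrix substrates summed to 12842 CPM, against 18844 to 20541 CPM. In sgTaz tumor 5, lymph node stroma markers summed to 425 CPM against 7.13 to 20.7 CPM, and B cell markers to 183 CPM against 7.56 to 21.8 CPM. In sgCon tumors, neutrophil markers summed to 831 CPM in tumor 2 against 219 to 395 CPM, and skeletal muscle markers to 70.9 CPM in tumor 3 against 31.0 to 40.3 CPM.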

How the results depend on the processing

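Of 190 values of the members' log2 fold changes under the alternatives, 187 kept their direction and side of the threshold. No member passed the threshold in the main edgeR fit, so that this count does not measure how stable the sizes were. For example, Timp1 was -0.22 with the replicate block and the GC content and exon length offset, against -0.64. Mmp12 was 0.0018 without sgCon tumor 5, against 0.13. Timp1 passed the adjusted threshold with DESeq2 (-0.63) and limma-voom (-0.76), and Mmp19 was -0.011 without sgTaz replicate 2 and between -0.011 and 0.20 over all tumors left out. Genes called over all genes were 1070 with DESeq2, 1546 with limma-voom, 5 with at least 10 counts in every tumor, and 0 without a filter, with the GC content and exon length offset, with the replicate block, and with both. The latter 4 had 3610, 3029, 2462 and 2612 genes at an unadjusted p below 0.05. With each tumor left out, 0 to 172 genes were called, with 172 without sgTaz tumor 5 and 75 without sgTaz tumor 2, and 0 members in each case. Members called were 1 with DESeq2 and 1 with limma-voom. Members at an unadjusted p below 0.05 were 5 with limma-voom and 2 to 4 with a tumor left out. Members whose groups did not overlap were 1 to 2 with a tumor left out, with Timp1 added without sgCon tumor 3, Timp2 without sgCon tumor 4 and Mmp3 without sgTaz tumor 2. Correlated pairs were 0 to 3, as described for sgCon tumor 1 and sgTaz tumor 2. The cause of these changes was not tested. Replicate numbers did not pair the tumors, since deviations of same-numbered tumors had r between -0.24 and 0.22, with 1 of 5 above 0.1. With the replicate block, 0 members were called and 3 were at an unadjusted p below 0.05. Depth was not limiting for the members, which had at least 325 counts.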
